A study of Mus musculus with 24 samples.

Results

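The effect of losing the TGF-beta type I receptor Alk5 was compared between the distal and the proximal ends of the mouse jaws, as the mutant minus control difference at the distal ends minus the same difference at the proximal ends, averaged over mandible and maxilla. All 24 of the 24 arrays entered this contrast, in 8 groups of 3. It equals the distal minus proximal difference in mutants minus that in controls, so a negative value means that a gene was less distal in the mutant jaws. Values are log2 signals of mouse oligonucleotide arrays that the authors made by RMA, a background correction and normalization that sets the arrays of a study on a shared scale.

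The embryos were on a C57B6 background at embryonic day 14.5. The mutants carried Alk5 floxed alleles and the Wnt1-Cre driver, which acts in cranial neural crest cells, the source of facial mesenchyme and bone, and they were recognised by their cleft palate and calvarial defect. The controls were littermates from crosses of Wnt1-Cre; Alk5 fl/+ with Alk5 fl/fl mice, so every control also inherited a floxed allele, and the labels do not say which controls carried Cre. Each jaw was cut into a distal and a proximal end, and the labels call both compartments bone. The epidermis, the muscle and other tissues outside the neural crest lineage keep a functional Alk5 in such mutants.

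The distal end of a jaw lies towards the midline and the lips, and the proximal end lies towards the jaw joint and the ear. Cells along this axis read signals of the BMP, Wnt, endothelin and TGF-beta families and switch on different transcription factors, so each end has its own skeletal and skin pattern. TGF-beta ligands bind the type II receptor Tgfbr2, which activates Alk5 (gene symbol Tgfbr1), and the active receptor phosphorylates SMAD proteins that control transcription.

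A gene was called when its adjusted p was under 0.05 in a limma fit over 13942 genes. There were 16 called genes (0.115% of those tested), of which 10 had a lower (0.0717%) and 6 a higher (0.043%) distal minus proximal difference in the mutants, and 1173 genes had an unadjusted p under 0.05. The 10 genes that moved away from the distal end were the keratins Krt1 and Krt15, the mesenchymal transcription factor Twist2, the membrane proteins Corin and Tmem132c, and Cyp27a1, Mmp11, Slco2a1, Heph and Gab1. The 6 genes that moved towards it were the secreted Wnt antagonist Dkk1 and Klhl14, Lmo7, Pxdc1, Bdh1 and Cmpk1. The sign of all 16 was the same in mandible and maxilla. The calls used the mean of both jaws, which favours such genes, so this is a description and no replication. The number of called genes rested on single arrays: it was 1 without the mutant distal mandible array numbered 2 and 42 without the mutant distal maxilla array numbered 3. It was 48 with the replicate number as a block and 70 with the number as a block within each genotype, and all 16 genes were among both. Over all genes, by contrast, the distance between the ends was lower in the mutant maxilla and higher in the mutant mandible, as given further on.

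The stretch of 250 bases before the annotated transcript start is shown for 3 of the leading genes, in RefSeq's assembly GRCm38.p6 and in the direction of transcription, because Dkk1 moved opposite to Twist2 and Tmem132c. Capitals mark CTTTGA or its reverse complement TCAAAG, the core bound by TCF/LEF factors, which carry the canonical Wnt signal. The stretches are chr19:30549497-30549746 on the minus strand, chr1:91801211-91801460 on the plus strand and chr5:127241576-127241825 on the plus strand.
Dkk1: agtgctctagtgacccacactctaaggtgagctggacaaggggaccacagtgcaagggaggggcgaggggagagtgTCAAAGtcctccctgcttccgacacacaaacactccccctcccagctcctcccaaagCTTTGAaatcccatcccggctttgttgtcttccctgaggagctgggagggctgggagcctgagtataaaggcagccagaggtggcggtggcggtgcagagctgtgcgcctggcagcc
Twist2: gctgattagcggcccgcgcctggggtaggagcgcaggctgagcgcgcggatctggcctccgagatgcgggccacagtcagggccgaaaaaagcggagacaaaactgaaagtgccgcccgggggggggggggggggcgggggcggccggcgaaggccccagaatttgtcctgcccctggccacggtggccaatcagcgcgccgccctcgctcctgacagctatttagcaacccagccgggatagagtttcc
Tmem132c: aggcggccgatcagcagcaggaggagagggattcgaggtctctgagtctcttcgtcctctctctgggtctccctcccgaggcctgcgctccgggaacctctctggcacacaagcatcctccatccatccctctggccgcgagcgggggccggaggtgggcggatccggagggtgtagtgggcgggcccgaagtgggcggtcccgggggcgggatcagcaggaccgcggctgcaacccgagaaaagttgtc

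The Dkk1 stretch held 2 matches, which begin 174 and 117 bases before the start, and the Twist2 and Tmem132c stretches held 0. Of the 16 called genes, 12 were matched to this promoter table by symbol, and 2 of them, Dkk1 and Lmo7, held a match on either strand. That share was 12.9% of the 11178 tested genes in the table and 13.8% of all 32851 promoters. The SMAD-binding letters CAGACA were in 2 of the 12, Bdh1 and Corin, and in 16.5% of the tested genes, and the AP-1 letters TGANTCA were in 0 of the 12 and in 5.6% of the tested genes. An AP-1 match and a TCF/LEF match can share 3 bases. These counts describe letters in a short window and do not show binding.

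Array medians lay between 7.03 and 7.12, and within groups each array correlated with the rest at a mean r of 0.9851 to 0.9968 over 18193 genes. The lowest agreement was that of the mutant maxilla arrays numbered 3, at 0.9867 for the distal and 0.9851 for the proximal end. Levels under 6.33 to 6.47, the lower edge of the filter on dim genes, were read as background. Nothing in the labels states that replicate arrays stem from different embryos, and p-values then reflect only the spread of these arrays, part of which may be technical. Xist, made from the inactive X chromosome, and the Y-linked Eif2s3y went with the replicate number in all 4 regions of each genotype. The control arrays numbered 1 had Xist at 13.53 to 13.67 and Eif2s3y at 3.6 to 4.24, while those numbered 2 and 3 had Xist at 6.23 to 7.49 and Eif2s3y at 9.71 to 9.97. The mutant arrays numbered 2 had Xist at 13.03 to 13.39 and Eif2s3y at 3.84 to 4.29, while those numbered 1 and 3 had both, with Xist at 11.15 to 12.79 and Eif2s3y at 9.05 to 9.75. The arrays of a genotype therefore did not all come from the same embryo or pool. The labels do not state whether an array holds 1 embryo or a pool. The mutant arrays numbered 1 and 3 held RNA of both sexes, as a pool or mixture would, and no control number did.

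Tmem132c, which encodes a membrane protein, had the smallest adjusted p of the contrast. In the mandible its controls read 9.41, 9.36 and 9.15 at the distal end and 8.72, 7.96 and 8.47 at the proximal end, and the mutants read 10.54, 10.39 and 10.41 at the distal end and 10.45, 10.11 and 9.84 at the proximal end. In the maxilla the controls read 10.11, 10.01 and 9.88 against 7.86, 7.93 and 8.20, and the mutants 9.68, 9.79 and 9.92 against 9.61, 9.40 and 9.86. The control ends lay apart in both jaws and the mutant ends overlapped in both. The contrast was -1.22 ± 0.17 (log2 change ± SE, 2.33-fold, limma adjusted p = 0.00873), made of a control difference of 1.46 ± 0.12 and a mutant difference of 0.24 ± 0.12 (adjusted p = 0.226). A second probe set of Tmem132c gave -1.107.

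**Figure D1:**
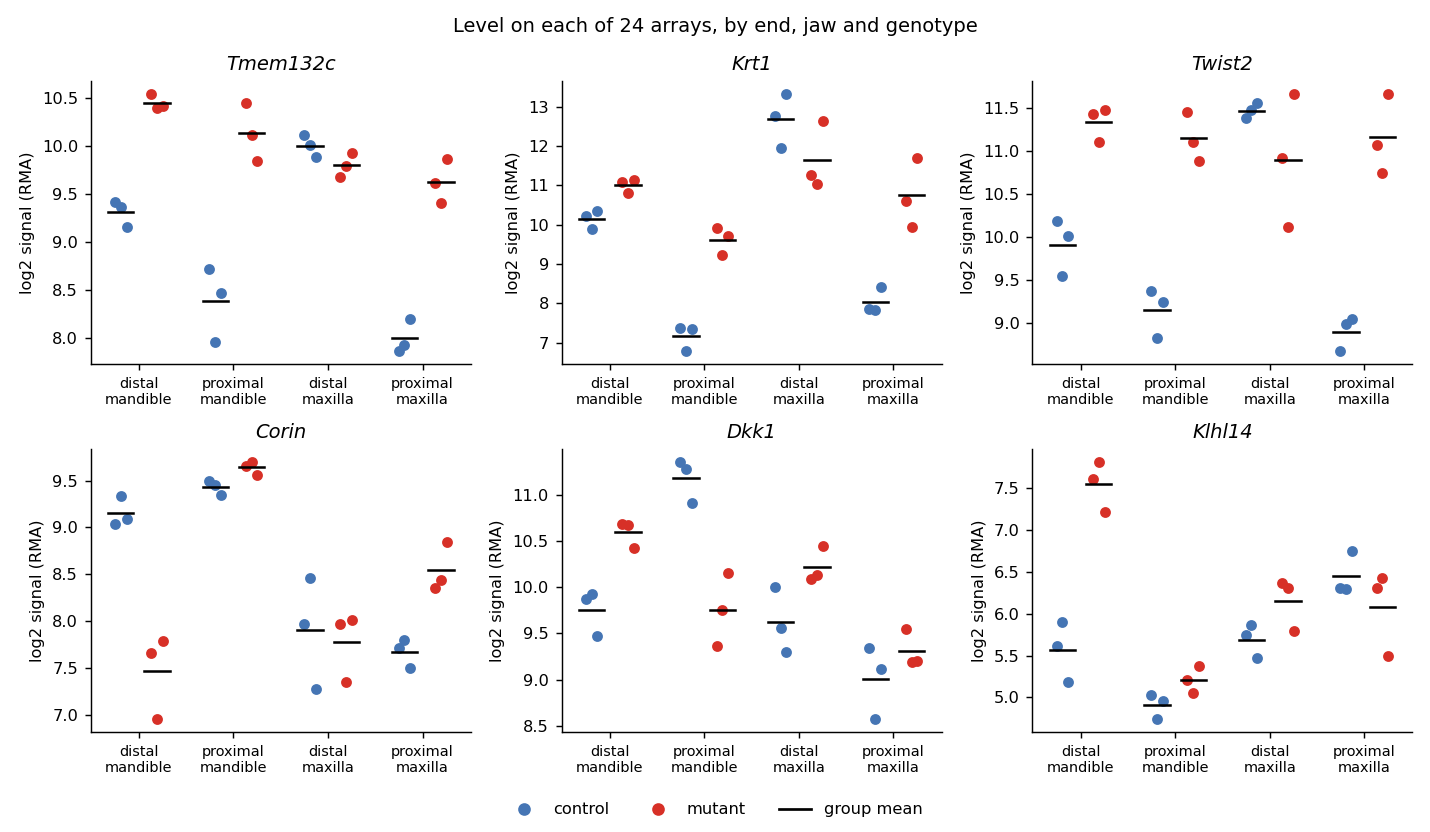
Log2 signal of 6 called genes on each of the 24 arrays (vertical axes), by end and jaw (horizontal axes). Blue points are control arrays, red points mutant arrays and black bars group means. In the controls Tmem132c, Krt1 and Twist2 are higher at the distal ends, and all mutant proximal arrays of these genes lie above the control proximal arrays, as with Twist2 in the maxilla at 10.74 to 11.66 against 8.67 to 9.04. The mutant ends overlap for Tmem132c and Twist2, and for Krt1 only in the maxilla.

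Twist2, a basic helix-loop-helix factor of dermal and facial mesenchyme, lost its difference between the ends. The controls read 10.18, 9.54 and 10.01 at the distal and 9.37, 8.83 and 9.24 at the proximal end of the mandible, and 11.38, 11.47 and 11.55 against 8.67, 8.99 and 9.04 in the maxilla. The mutants read 11.43, 11.10 and 11.47 against 11.45, 11.10 and 10.88 in the mandible, and 10.92, 10.11 and 11.66 against 11.07, 10.74 and 11.66 in the maxilla. The control ends did not overlap, the mutant ends did, and every mutant proximal array lay above every control proximal array. The contrast was -1.71 ± 0.29 (3.26-fold, limma adjusted p = 0.0211), from 1.67 ± 0.20 in controls to -0.04 ± 0.20 in mutants. Twist2 was the only one of 15 tested crest mesenchyme factors that was called (with a replicate block Tfap2a was also called, lower), and the median of that list was -0.049, beside 0.011 for all genes. Its relative Twist1 had a contrast of -0.18 (adjusted p = 0.589).

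Krt1, the keratin of suprabasal epidermal cells, had the largest contrast of the called genes. Controls read 10.22, 9.90 and 10.34 at the distal and 7.37, 6.78 and 7.36 at the proximal end of the mandible, and 12.76, 11.94 and 13.32 against 7.86, 7.84 and 8.42 in the maxilla. The mutants read 11.07, 10.80 and 11.13 against 9.91, 9.24 and 9.71 in the mandible, and 11.26, 11.04 and 12.63 against 10.59, 9.95 and 11.68 in the maxilla. The mutant ends still lay apart in the mandible and overlapped in the maxilla. The distal minus proximal difference was 3.81 ± 0.29 in controls and 1.14 ± 0.29 in mutants (2.21-fold, adjusted p = 0.0125), and the contrast was -2.67 ± 0.41 (limma adjusted p = 0.0177).

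Krt15, a keratin of basal epidermal cells, went from 2.20 ± 0.27 in controls to 0.20 ± 0.27 in mutants, with a contrast of -1.99 ± 0.38 (limma adjusted p = 0.048). Its controls read 12.72 to 13.63 at the distal end of the maxilla and 9.52 to 10.72 at the proximal end, and its mutants 11.70 to 13.10 and 11.75 to 12.87. The ends of the control maxilla lay apart and those of the mutant maxilla overlapped.

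Corin, a membrane-bound serine protease that activates the atrial natriuretic peptide, differed from these genes in that its mean control difference was near 0, with opposite signs in the jaws. Its mutant distal end was low in the mandible only. In the maxilla the distal genotypes overlapped and all mutant proximal arrays lay above all control proximal arrays. The mandible read 9.04, 9.33 and 9.09 at the distal and 9.50, 9.45 and 9.35 at the proximal end in controls, and 7.66, 6.95 and 7.79 against 9.66, 9.70 and 9.56 in mutants. The maxilla read 7.97, 8.46 and 7.27 against 7.71, 7.80 and 7.50 in controls and 7.97, 7.35 and 8.01 against 8.35, 8.44 and 8.84 in mutants. The mutant ends lay apart in both jaws and the control ends in the mandible, each with the proximal end higher, and the control ends of the maxilla overlapped. The control difference was -0.28 ± 0.24 in the mandible and 0.23 ± 0.24 in the maxilla. Over both jaws the difference was -0.02 ± 0.17 in controls (adjusted p = 0.945) and -1.47 ± 0.17 in mutants, and the contrast was -1.45 ± 0.24 (2.73-fold, limma adjusted p = 0.0211).

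Mmp11, a stromal matrix metalloproteinase, was higher at the control distal ends by 0.61 ± 0.07 and its mutant ends did not differ beyond their spread (adjusted p = 0.994), with a contrast of -0.61 ± 0.10 (limma adjusted p = 0.0211). Cyp27a1, the mitochondrial sterol 27-hydroxylase, went from 0.89 to 0.14, with a contrast of -0.76 ± 0.12 (adjusted p = 0.0177). Its control proximal mandible read 6.51 to 6.71, close to background, and a dim second probe set, at a mean level of 3.89, gave 0.164. Heph, the copper-dependent iron oxidase hephaestin, went from 0.47 to 0.03 (adjusted p of the contrast 0.048). The prostaglandin transporter Slco2a1 and Gab1, an adaptor of receptor tyrosine kinases, changed sides: Slco2a1 from 0.30 to -0.22 and Gab1 from 0.17 to -0.20, each called in both genotypes. Their contrasts were -0.521 and -0.367. Other probe sets gave smaller values, -0.302, -0.207 and -0.287 for Slco2a1 and -0.206 and -0.274 for Gab1.

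Dkk1, a secreted antagonist of canonical Wnt signals, made the opposite move. In the control mandible it read 9.87, 9.93 and 9.47 at the distal and 11.36, 11.28 and 10.91 at the proximal end, and in the mutant mandible 10.69, 10.68 and 10.43 against 9.36, 9.75 and 10.16. In the maxilla it read 10.00, 9.56 and 9.30 against 9.34, 8.57 and 9.11 in controls and 10.09, 10.13 and 10.45 against 9.55, 9.19 and 9.20 in mutants. The ends of the mandible lay apart in both genotypes, with the proximal end higher in controls and the distal end higher in mutants. The contrast was 1.28 ± 0.22 (2.43-fold, limma adjusted p = 0.0211) over both jaws, 2.27 ± 0.31 in the mandible (adjusted p = 0.00681) and 0.29 ± 0.31 in the maxilla (adjusted p = 0.838). A second probe set gave 1.583 over both jaws.

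Klhl14, of the BTB-kelch family, read 7.61, 7.81 and 7.21 in the mutant distal mandible and 4.74 to 6.75 on all other arrays, so its contrast of 1.25 ± 0.23 (limma adjusted p = 0.0455) rests on the only group with all arrays above background, and its size is uncertain since the other groups lay at or near background. Lmo7, a LIM domain protein of cell junctions, went from 0.08 to 0.75, with a contrast of 0.67 ± 0.13. Bdh1, the mitochondrial 3-hydroxybutyrate dehydrogenase, went from -0.11 to 0.36, and Pxdc1 from -0.28 to 0.23. Cmpk1, a pyrimidine nucleotide kinase, had the smallest contrast, 0.20 ± 0.04. Second, dimmer probe sets gave 0.237 for Lmo7, 0.723 for Bdh1 and 0.295 for Cmpk1. All 6 genes were called distal in the mutants, where 5.7% of all genes were, and none was called distal in the controls, where 6.21% were. The genes were picked by the mutant minus the control difference, so these counts follow in part from the choice and are a description.

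**Figure D2:**
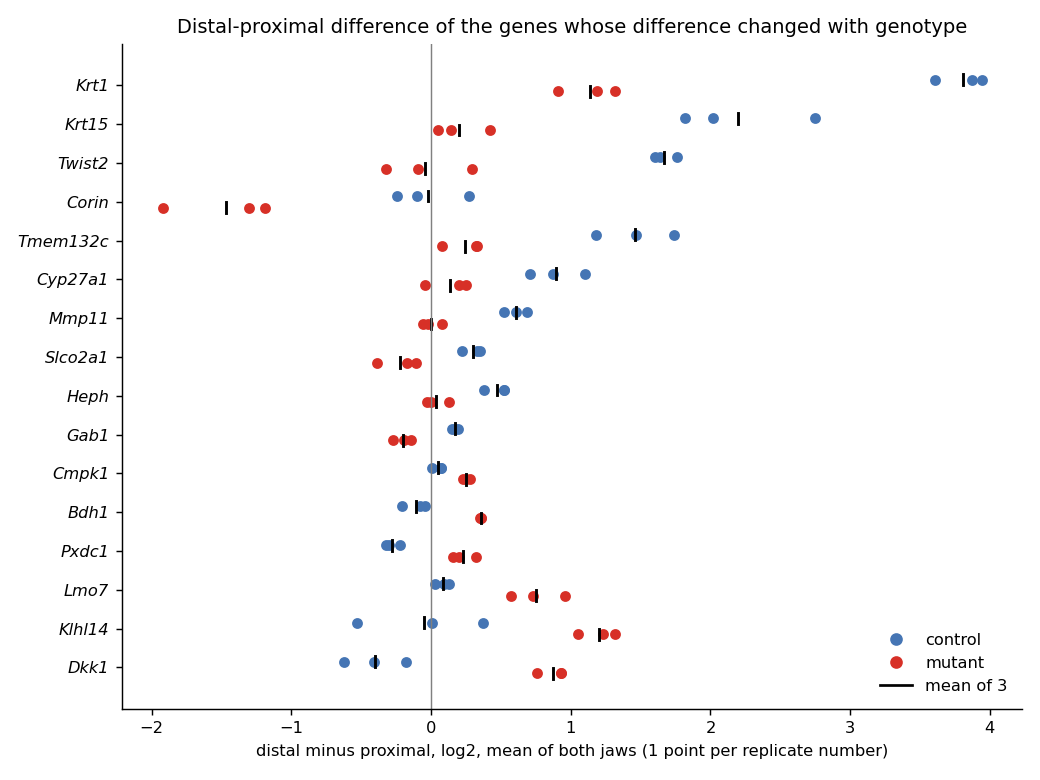
Distal minus proximal difference in log2 units, mean of both jaws (horizontal axis), of the 16 called genes (vertical axis). Each point is 1 replicate number of the controls (blue) or mutants (red) and black bars are means of 3. The number only sets arrays side by side and is not stated to mark an embryo. Control and mutant points lie apart for every gene shown, but the genes were called by this same difference, so this adds no support. The control values of Krt1, Krt15, Twist2 and Tmem132c are 1.18 or more. The mutant values of Krt15, Twist2 and Tmem132c are 0.42 or less.

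The same arrays can be read as a genotype effect at each end, which shares its values with the contrast. Over all genes 19.9% were called at the distal and 28.4% at the proximal ends. All 10 genes that moved away from the distal end were called higher in the mutant proximal ends, where 15.9% of all genes were. Twist2 was 2.13 ± 0.20 higher in the mutant proximal ends (4.37-fold, limma adjusted p = 1.02e-06) and 0.42 ± 0.20 higher in the distal ends (adjusted p = 0.149). For Krt1 these differences were 2.57 ± 0.29 and -0.09 ± 0.29, and for Tmem132c 1.69 ± 0.12 and 0.47 ± 0.12. The distal values average over jaws that differed. In the distal mandible all mutant arrays of Twist2, Krt1 and Tmem132c lay above all control arrays (Krt1 10.80 to 11.13 against 9.90 to 10.34). In the distal maxilla the genotypes overlapped, with the mutant arrays numbered 1 and 2 below all controls. There Krt1 read 11.04 to 12.63 in mutants against 11.94 to 13.32 in controls. Among the 10 genes, Corin alone was called lower in the mutant distal ends, by -0.91 ± 0.17, where 7.47% of all genes were. For Corin too the distal genotypes lay apart in the mandible and overlapped in the maxilla. Of the 6 genes that moved the other way, 5 were called lower in the mutant proximal ends, where 12.5% were. Lmo7 was the farthest of these, at -1.04 ± 0.09, and Dkk1 read -0.56 ± 0.15 there and 0.72 ± 0.15 at the distal ends.

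The genes with the largest control difference between the ends show which contrasts were kept. On the distal side these were Them5, an acyl-CoA thioesterase, Krt1, and the epidermal genes Krtdap, Dsg1a, Krt6a and Dmkn. Them5 went from 4.23 ± 0.38 in controls to 2.21 ± 0.38 in mutants, Krtdap from 3.55 to 1.03, and Krt6a from 3.41 to 2.44, with contrasts that did not pass the threshold (adjusted p of 0.201, 0.119 and 0.657). With the number as a block within genotype Krtdap was called (limma adjusted p = 0.021), and Them5 (adjusted p = 0.0735) and Krt6a (adjusted p = 0.467) were not. Them5 was called when the ends were subtracted within each number first (adjusted p = 0.00823). On the proximal side they were Shisa3, the homeobox gene Barx1, Sim2, S100a8, S100a9 and the nuclear receptor Nr2f1. Barx1, a factor of the proximal jaw mesenchyme and the molar region, went from -2.35 ± 0.26 to -2.29 ± 0.26, and Nr2f1 from -1.88 to -2.23. By replicate number, the Barx1 difference in the maxilla was -3.22, -1.26 and -2.13 in controls and -0.51, -0.98 and -3.1 in mutants. In the mandible it was -2.37, -2.64 and -2.47 in controls and -2.53, -3.55 and -3.08 in mutants. The genotypes overlapped in both jaws. All 6 proximal genes were still called proximal in the mutants, where 5.79% of all genes were, and Krt1, Them5, Dsg1a and Krt6a were still called distal. These genes were picked by their control value, so the lower mutant values of the distal ones are a description, with no test.

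Across all genes the ends differed in the mutants too. Over both jaws 1923 genes (13.8%) were called between the control ends and 1601 (11.5%) between the mutant ends, and 832 were called in both in the same direction, 43.3% of the control and 52.0% of the mutant list, with 3 called in opposite directions. These comparisons share no array. The difference of a gene in controls and in mutants had r = 0.73 across genes, a description only, since the genes share arrays and are not replicates.

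The jaws differed in this respect. In the mandible 760 genes (5.45%) were called between the ends in controls and 1258 (9.02%) in mutants, with 2.54% and 4.02% of all genes called proximal. In the maxilla 1518 (10.9%) were called in controls and 173 (1.24%) in mutants, with 5.99% and 0.43% called proximal, and 120 genes were called in both in the same direction, which is 7.9% of the control and 69.4% of the mutant list. The median over genes of the SD between 3 arrays was 0.146 at the distal and 0.102 at the proximal end of the control maxilla, 0.0781 and 0.0852 in the control mandible, 0.105 and 0.119 in the mutant maxilla and 0.1 and 0.14 in the mutant mandible. With single arrays left out the counts ran from 362 to 892 in the control mandible and from 567 to 1705 in the mutant mandible, and from 699 to 1782 in the control maxilla and from 57 to 225 in the mutant maxilla. The lowest counts came without the arrays numbered 2 of the distal mandible of each genotype, number 3 of the control distal maxilla and number 2 of the mutant distal maxilla. With the number as a block within genotype the counts were 1334 and 2077 in the mandible and 2229 and 515 in the maxilla, for controls and mutants. Without both mutant maxilla arrays numbered 3 the mutant maxilla had 63 called genes. With array weights the order in the mandible turned, to 2547 in controls and 983 in mutants, and the maxilla gave 1514 and 371.

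The distance between the ends was also measured without a threshold, as the SD over the 13942 genes of the distal minus proximal difference within a replicate number. In the mandible it was 0.32, 0.363 and 0.304 in controls and 0.396, 0.397 and 0.455 in mutants. In the maxilla it was 0.505, 0.468 and 0.585 in controls and 0.283, 0.331 and 0.418 in mutants. The genotypes lay apart in each jaw, in opposite directions, and each comparison gave p = 0.1 in a two-sided exact permutation test, the smallest value that 3 against 3 allow. The mean of the jaws was 0.424 ± 0.017 in controls and 0.380 ± 0.050 in mutants (SD, n = 3) and overlapped (exact permutation p = 0.3). The maxilla minus mandible difference was 0.190 ± 0.088 in controls and -0.072 ± 0.039 in mutants, also apart (exact permutation p = 0.1). With the interquartile range in place of the SD the genotypes overlapped in both jaws, at 0.225 and 0.282 in the mandible and 0.304 and 0.200 in the maxilla (exact permutation p = 0.3 for each).

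**Figure D3:**
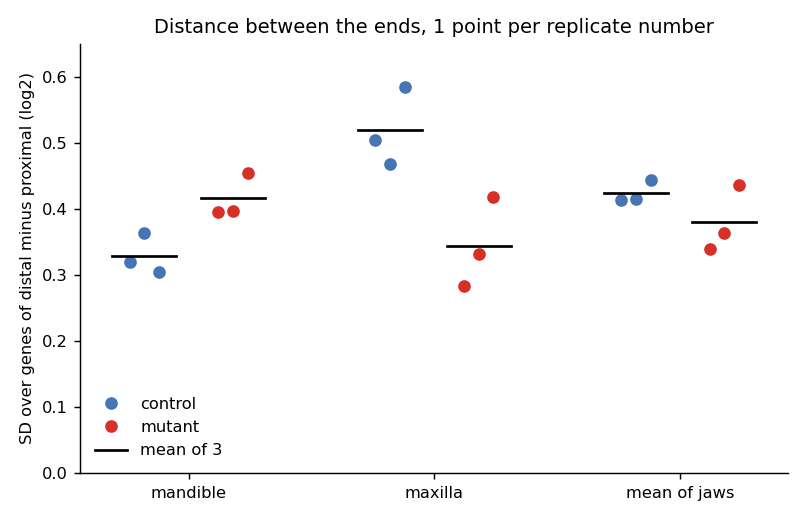
SD over genes of the distal minus proximal log2 difference (vertical axis, from 0) for each replicate number in mandible, maxilla and their mean (horizontal axis). Blue points are controls, red points mutants and black bars means of 3. Mutants lie above controls in the mandible (0.396 to 0.455 against 0.304 to 0.363) and below them in the maxilla (0.283 to 0.418 against 0.468 to 0.585).

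The fitted contrasts of Twist2, Krt1 and Tmem132c were farther from 0 in the maxilla. Of the 10 genes that moved away from the distal end, 8 had the larger contrast in the maxilla, and all 6 genes that moved towards it had the larger one in the mandible. None of the 16 was called for a difference between the jaws, a comparison in which 0.115% of all genes were called. Tmem132c gave -1.83 ± 0.24 in the maxilla and -0.61 ± 0.24 in the mandible, Twist2 -2.83 ± 0.41 and -0.58 ± 0.41, and Krt1 -3.73 ± 0.58 and -1.61 ± 0.58. Fitted in each jaw alone, 7 of the 16 were called in the maxilla and 4 in the mandible.

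In the maxilla alone 28 genes were called (0.201%), 24 of them lower (0.172%) and 4 higher (0.0287%). The count was 11 without the control distal maxilla array numbered 3, 133 without number 2 of that group and 382 without the mutant distal maxilla array numbered 3, and it was 136 with the block within genotype. The lower genes included epidermal genes (Krt1, Krt15, Krt10, Dsg1a and Grhl3), Serpinb2, genes of Wnt signalling and the mesenchymal factors Twist2, Twist1, Pax1 and Vgll3. Serpinb2 read 8.86, 7.81 and 9.23 in the control and 6.06, 6.82 and 6.8 in the mutant distal maxilla. On all other arrays it read 4.09 to 4.58, under background, so the size of its contrast is uncertain. Lef1, the transcription factor through which Wnt signals act, read 10.65, 10.40 and 10.49 at the distal and 9.16, 9.11 and 9.30 at the proximal end in controls, and 10.59, 10.41 and 10.62 against 10.60, 10.10 and 10.48 in mutants. Only the control ends lay apart, and its contrast was -1.17 ± 0.16 (limma adjusted p = 0.00307). Apcdd1, a membrane inhibitor of Wnt signals, gave -1.79 ± 0.25, the receptor Fzd10 -0.98 ± 0.18 and the ligand Wnt5a -1.42 ± 0.29 (adjusted p = 0.0499). The chemokine Cxcl14 gave -3.53 ± 0.59. The 4 higher genes were Reln, Paqr9, Gm266 and Fezf2, and Fezf2 was at background except in the mutant distal maxilla, at 6.64, 7.83 and 7.05. Paqr9 lay above background on all arrays only in the control proximal maxilla, at 7.21, 6.83 and 6.58.

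In the mandible alone 15 genes were called (0.108%), 6 lower and 9 higher (0.0646%), and the count was 1 without the array numbered 2 of the control distal or control proximal mandible and 29 without the mutant proximal mandible array numbered 3. It was 56 with the block within genotype. Dkk4, another secreted Wnt antagonist, read 8.34, 9.48 and 8.16 in the mutant distal mandible, 6.71, 5.86 and 6.14 in the control distal mandible, and 6.05 to 6.44 in both proximal groups. Only the mutant distal group lay clear of background, so the size of the contrast of 2.59 ± 0.43 (limma adjusted p = 0.0176) is uncertain. Hpgd, which breaks down prostaglandins, gave 1.77 ± 0.29, the transcription factor Tfap2b 1.97 ± 0.37, Lbh 0.99 ± 0.16 and the vascular transcription factor Sox18 1.05 ± 0.18. The tetraspanin Tspan8 read 9.15, 9.66 and 8.57 in the control distal mandible and 6.74, 6.61 and 6.65 in the mutant, against 8.41, 7.86 and 7.92 and 7.5, 7.97 and 7.92 at the proximal end. Its distal groups lay apart and its proximal groups overlapped, and its contrast was -2.19 ± 0.35 (adjusted p = 0.0176). Nr5a2, Htr7, Enpep and Tenm4 were the other lower genes beside Corin. Htr7 read 6.88, 7.38 and 6.83 in the mutant proximal mandible and 5.5 to 6.35 on all other arrays. Only that group lay clear of background, so the size of the Htr7 contrast is uncertain.

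**Figure D4:**
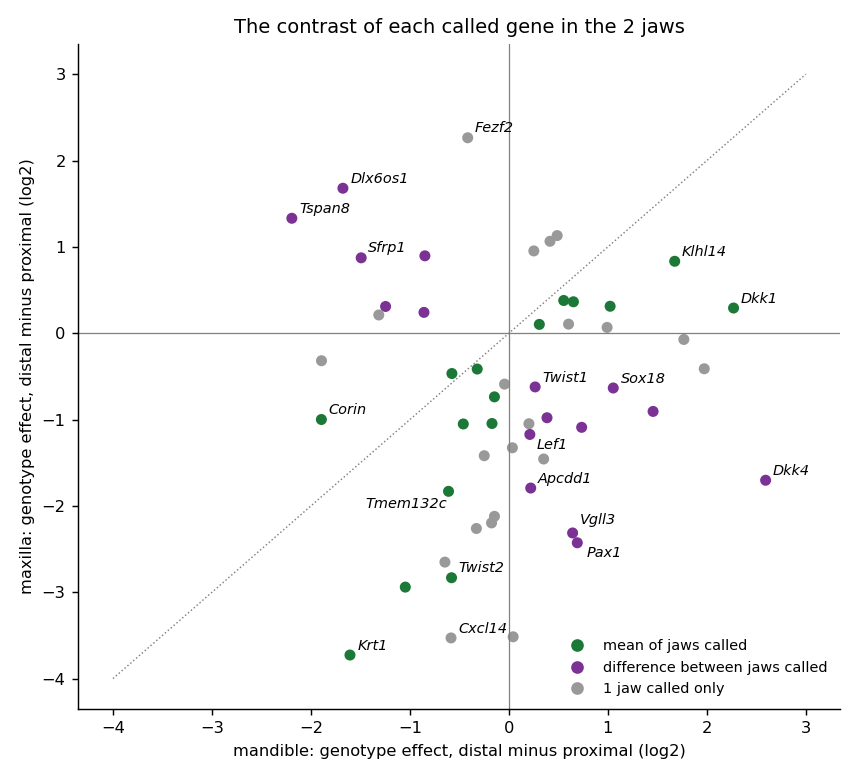
The contrast (mutant minus control, distal minus proximal, log2) in the mandible (horizontal axis) and in the maxilla (vertical axis) of every gene called in any of 4 comparisons. Green points were called for the mean of both jaws, purple points for the difference between the jaws and grey points in 1 jaw only; the dotted line marks equal values. Krt1, Twist2 and Tmem132c lie in the lower left with larger values in the maxilla, Dkk1 far to the right at 2.27 and 0.29, and Dkk4 at 2.59 in the mandible and -1.70 in the maxilla.

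In the contrast between the ends, the TGF-beta pathway itself showed no called gene in the fit without a block. Of 10 tested ligands and receptors 0 were called, with a median of 0.008 (with the block within genotype the co-receptor Tgfbr3 was called, lower), and of 16 tested TGF-beta induced genes 0 were called, with a median of 0.027, beside 0.011 for all genes. The genotype effect on the 16 induced genes was alike at both ends. At the distal ends 10 were called lower in the mutants (7.47% of all genes) and 1 higher (12.4%), with a median of -0.349. At the proximal ends 9 were called lower (12.5%) and 2 higher (15.9%), with a median of -0.348. Tgfb2 had a contrast of -0.38 ± 0.11 (limma adjusted p = 0.237), Tgfb1 0.58 ± 0.29 (adjusted p = 0.623) and Tgfb3 -0.018 ± 0.15 (adjusted p = 0.996). The receptor Tgfbr2 gave -0.15 ± 0.10 (adjusted p = 0.756). Tgfbr1, the targeted gene, gave 0.08 ± 0.09 (adjusted p = 0.901), and its level was 0.30 ± 0.06 higher at the distal and 0.21 ± 0.06 higher at the proximal ends of the mutants. Where its probe set lies against the deleted exons is not known here, so they are no check of the genotype labels.

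Among Wnt genes, Dkk1 was the only called member of both the 14 secreted antagonists and the 13 tested response genes, and it is on both lists. The medians were 0.236 for the antagonists and -0.084 for the response genes. Sost, an antagonist best known from bone, gave 0.86 (limma adjusted p = 0.079) and was called with a replicate block. Sfrp1 gave -1.49 ± 0.33 in the mandible and 0.87 ± 0.33 in the maxilla, and Lef1 0.21 and -1.17. Among 12 tested genes of the distal jaw and midline 0 were called, and 8 were called distal in the controls (6.21% of all genes) against 10 in the mutants (5.7%). By jaw, 7 and 8 were called distal in the control and mutant mandible (2.91% and 5.01% of all genes). In the maxilla 8 and 2 were (4.9% and 0.811%), and 9 of the 12 contrasts there were negative. Among 13 tested genes of the proximal jaw 0 were called, and 5 were called proximal in the controls (7.58% of all genes) against 6 in the mutants (5.79%). By jaw, 2 and 5 were called proximal in the control and mutant mandible (2.54% and 4.02% of all genes), and 3 and 2 in the maxilla (5.99% and 0.43%). Of the 11 tested mandibular identity genes and the 11 palate and maxilla genes 0 were called, with medians of 0.216 and -0.679. By jaw, the mandibular identity median was -0.497 in the mandible and 0.716 in the maxilla. The palate and maxilla median was -0.374 in the mandible and -0.441 in the maxilla.

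Genes of stratified skin had negative contrasts. Of 21 tested epidermal genes 2 were called lower, Krt1 and Krt15, and all 21 had a negative value, beside 6334 of all 13942 genes. With either replicate block 5 were called lower, with Krt10, Krtdap and Grhl3 added. The median was -1.03, with -2.01 in the maxilla and -0.18 in the mandible. In the control maxilla 19 of the 21 were called distal, where 4.9% of all genes were, and in the mutant maxilla 2 were, where 0.811% were. In the mandible the numbers were 12 in controls (2.91% of all genes) and 9 in mutants (5.01%). At the proximal ends 13 of the 21 were called higher in the mutants, where 15.9% of all genes were, and at the distal ends 0 were called in either direction, where 19.9% of all genes were. The mean level of the list was 9.90 to 11.12 in the control distal maxilla and 7.35 to 7.96 in the control proximal maxilla, and it was 9.45 to 10.46 and 8.50 to 9.64 in the mutants. In the mandible it was 9.43 to 9.58 and 8.06 to 8.43 in controls and 9.82 to 10.10 and 8.91 to 9.19 in mutants. In tissue pieces a larger share of skin and more RNA per skin cell cannot be told apart, and the part of the skin share in the values of Twist2, Tmem132c and the other called genes was not tested.

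Skeletal and muscle genes gave 0 calls in the contrast, with wide spreads. The 25 muscle genes had a median of -0.87 and 24 negative values, and 5 of them were called proximal in the control jaws (7.58% of all genes) against 21 in the mutant jaws (5.79%). By jaw, 0 and 1 were called proximal in the control and mutant mandible (2.54% and 4.02% of all genes). In the maxilla 9 and 3 were (5.99% and 0.43%). The muscle genes had a median contrast of -1.475 in the mandible, with 25 negative, and -0.203 in the maxilla, with 16 negative. Their mean level in the mandible was 9.74 to 10.64 at the distal and 10.15 to 11.16 at the proximal end in controls, and 7.03 to 8.70 and 9.16 to 10.31 in mutants. The 19 tested cartilage genes had a median of -1.09 in the mandible, where 18 were negative, and 1.58 in the maxilla, where 1 was. The cartilage level of the control distal maxilla ran from 9.13 to 11.65 and that of the mutant proximal maxilla from 7.80 to 9.96. The 11 tested bone genes had a median of 0.615. It was -0.15 in the mandible, where 7 were negative, and 1.075 in the maxilla, where 2 were. The mean level of the bone genes, 9.03 to 12.80 over all groups, was above background in every array. Transcripts of bone were therefore present in all pieces, beside those of skin and muscle. The parts that shares of muscle, cartilage and bone have in the called genes were not tested.

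**Figure D5:**
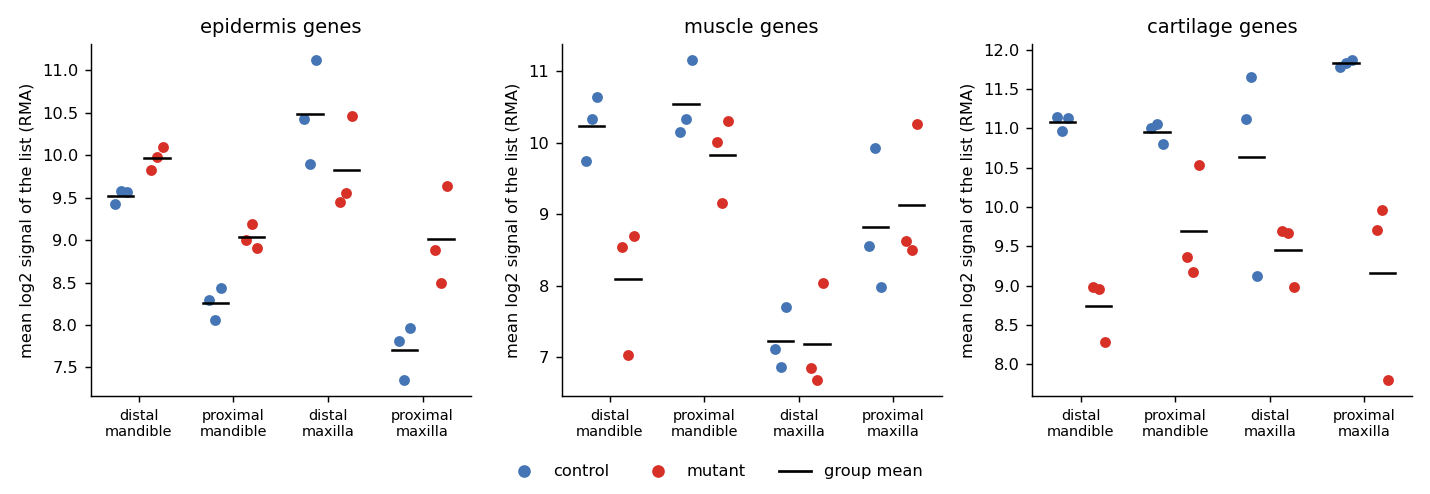
Mean log2 signal of 21 epidermal, 25 muscle and 19 cartilage genes on each array (vertical axes), by end and jaw (horizontal axes). Blue points are control arrays, red points mutant arrays and black bars group means. Epidermal genes are higher at the distal ends in both genotypes, and in the proximal maxilla all mutant arrays (8.50 to 9.64) lie above all control arrays (7.35 to 7.96).

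The other lists held few or no calls. Hair follicle and skin appendage genes had 1 call, Twist2, of 14 tested. Lists for BMP, hedgehog, FGF and Notch responses, tendon, oral epithelium, tooth, nasal epithelium, neurons, glia, endothelium, erythroid cells, macrophages, osteoclasts, proliferation, immediate early genes and hypoxia had 0 calls. With the block within genotype Krt4 of the oral epithelium list was called lower and Ldha of the hypoxia list higher. With the ends subtracted within each number first, at 372 of 13942 genes called, 14 of the 21 epidermal genes were called lower and 5 of the 11 bone genes higher. In that fit 4 of 12 BMP response and 3 of 10 hypoxia genes were also called higher. Of the palate and maxilla genes 3 of 11 were called lower, as were 3 of 25 muscle genes. Each other list with calls held them in both directions or had fewer. The 13 tested macrophage genes all had negative values, with a median of -0.279, and 9 of them were called proximal in the mutants, where 5.79% of all genes were, against 0 in the controls, where 7.58% were. The 13 proliferation genes had a median of 0.059.

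Tmem132c was called whichever of the 24 arrays was left out. Krt1 and Cyp27a1 were called in 23 of these 24 fits, Corin and Mmp11 in 21, Twist2 in 20 and Dkk1 in 19. The remaining 9 genes were called in 4 to 13 of them, and none of the 16 changed sign. The lowest adjusted p outside the threshold were 0.0694 for Reln and 0.0707 for Cxcl14, beside 0.048 for the last called genes.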

How the data were processed

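RNA of the distal and proximal ends of mandible and maxilla was measured on 24 single-colour mouse arrays. The authors deposited RMA values, per the submitters' processing notes, on a log2 scale judged from their span (3.29 to 14.86). Of 45101 probe sets 34945 had 1 symbol in the array annotation. For 18193 genes the probe set of highest mean was kept, and 13942 genes above the 40th percentile of at least 3 arrays were tested. No detection calls or depth apply, and the number of arrays limits the precision.

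Group means were fitted over all 24 arrays in limma 3.58.1 (R 4.3.3, lmFit and eBayes with trend), with two-sided p-values and Benjamini-Hochberg adjustment over all genes tested. The fit was tested on simulated data. Errors are standard errors of the fit unless given as SD. Exact permutation tests used scipy 1.17.1 under Python 3.11.15, with figures in matplotlib 3.10.9. Alternatives were another normalization, filter, probe set rule, array weights, no trend, replicate blocks and each array left out.

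The contrast, the 33 gene lists and the alternatives were chosen with earlier results of these data known. Genes were named when called with the same sign in each jaw (up to 12 in each direction), with up to 4 members per list by the moderated statistic, the 6 largest control differences in each direction, and the TGF-beta ligands and receptors. Genes named for 1 jaw alone, Dkk4, Sfrp1, Lef1, Twist1 and the genes just outside the threshold were chosen after their values were seen. Whether replicate numbers pair arrays was checked from residuals across genes. Distal and proximal arrays of the same number had r of 0.27 to 0.74 in the mandible of both genotypes and in the mutant maxilla, where every r was over 0.1, and 0.373, 0.137 and 0.0307 in the control maxilla. Between genotypes r ran from -0.169 to 0.368. This pairing of the ends comes from the data, since the labels give only the numbers. Blocked fits are given beside the results they change.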

Additional observations from a re-analysis of the deposited data

Results flagged for a closer look

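In 16 genes the contrast differed between the jaws by a test of the difference itself (limma, adjusted p under 0.05, 3 arrays per group). Values are the mandible contrast minus the maxilla contrast, in log2 units. Among Wnt genes it was 4.30 for Dkk4, 2.01 for Apcdd1, 1.38 for Lef1, 1.36 for Fzd10 and -2.37 for Sfrp1. Dkk4 was above background in the control distal maxilla (8.13, 8.35 and 8.82) and the mutant distal mandible, and it read 6.68, 6.84 and 7.58 in the mutant distal maxilla. Among transcription factors and cofactors it was 3.12 for Pax1, 2.96 for Vgll3, 1.69 for Sox18 and 0.89 for Twist1. It was -3.52 for Tspan8 and -3.36 for Dlx6os1, a transcript of the Dlx5 and Dlx6 locus. Dlx6os1 read 7.70 to 8.13 in the mutant and 8.74 to 8.92 in the control distal mandible, and 8.65 to 9.31 in the mutant and 7.05 to 8.09 in the control distal maxilla. The remaining differences were 2.36 for the vasopressin receptor Avpr1a, 1.82 for Egfl6, -1.75 for Sv2b, -1.56 for the peptidase Enpep and -1.10 for Tenm4. The number of such genes was 4 to 77 with single arrays left out, and a block by number within genotype gave 51.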

How the results depend on the processing

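The sign of all 16 called genes was kept under every alternative tried. Corin, Cyp27a1, Dkk1, Krt1, Mmp11, Tmem132c and Twist2 also stayed called under every alternative except some that left out 1 array (Cyp27a1 under each that tested it), and the other 9 lost the call in at least 1 alternative. The count of 16 became 30 with array weights, 9 without a filter on dim genes, 8 with the mean of all probe sets (6 of them shared) and 9 without the mean-variance trend. For the difference between the jaws (16 genes) these were 34 with array weights, 7 without the filter and 5 without the trend. Array weights gave 39 genes in the mandible, 94 in the maxilla, 2547 for end against end in the control mandible and 371 in the mutant maxilla.

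Ends of the same replicate number had residual r that were all over 0.1 in 3 of 4 combinations of genotype and jaw. In the control maxilla r was 0.373, 0.137 and 0.0307, so the residuals do not settle the pairing there. The sex-linked transcripts went with the number in that jaw too. Fits with the number are therefore given beside those without. With a replicate block the count was 48 for the contrast, 36 in the mandible, 111 in the maxilla, 48 between the jaws, 1156 for end against end in the control mandible and 332 in the mutant maxilla. With a replicate block within genotype the same counts were 70, 56, 136, 51, 1334 and 515, with 2403 genes between the mutant ends and 2077 in the mutant mandible. As an alternative chosen after seeing the data, differences taken within each number first (a replicate block) gave 372 genes for the contrast, 334 in the mandible, 124 in the maxilla and 2891 between the control ends. All 16 genes were among the 48, 70 and 372.

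Leaving out both mutant maxilla arrays numbered 3, also chosen after seeing the data, gave 49 genes (15 of the 16), 32 in the mandible, 213 in the maxilla, 80 between the jaws and 63 between the ends of the mutant maxilla. Without 1 array the contrast gave 1 to 42 genes. It gave 7, 9 and 10 without control distal mandible 1, 2 and 3, and 6, 3 and 9 without control proximal mandible 1, 2 and 3. It gave 6, 32 and 4 without control distal maxilla 1, 2 and 3, 6 and 1 without mutant distal mandible 1 and 2, and 9 and 28 without mutant proximal mandible 1 and 3. It gave 8, 7 and 42 without mutant distal maxilla 1, 2 and 3. The other arrays moved it by less than 1.5 times. The mandible gave 1 to 29, the maxilla 11 to 382 and the difference between the jaws 4 to 77, where 51 came without control distal maxilla 2 and 77 without mutant distal maxilla 3. The ends gave 1354 to 2135 genes in controls and 1127 to 1941 in mutants. They gave 362 to 892 in the control mandible, 699 to 1782 in the control maxilla, 567 to 1705 in the mutant mandible and 57 to 225 in the mutant maxilla, all of these by jaw chosen after seeing the data.

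The control minus mutant distance between the ends, 0.0442 for the mean of the jaws, was -0.0871 in the mandible alone, and 0.0239 to 0.0724 without 1 array. With single arrays left out, a few contrasts that were not called changed sign, with ranges of -0.0918 to 0.0862 for Tgfb3, -0.1274 to 0.3333 for Barx1 and -0.1357 to 0.5748 for Sim2. The causes of these changes were not tested. Signals near background limit Klhl14, Dkk4, Htr7, Fezf2, Paqr9, Serpinb2 and Cyp27a1.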
